A study of Homo sapiens with 12 samples.

Results

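Organoids without FEZ1 were followed from an early neuroepithelial stage, day 10 of culture, to day 60, when neurons had formed. FEZ1-null organoids made up 6 of the 12 libraries of the series, 2 at day 60 and 4 at day 10, and were chosen by their labels. The remaining 6 libraries were wildtype organoids, 2 at day 60 and 4 at day 10, and serve to show where the change between the days differed by genotype; through the joint fit they also enter the estimate of the spread. Every library held bulk RNA of cerebral organoids made from the established human embryonic stem cell line H1. How FEZ1 was removed, whether the FEZ1-null line is 1 clone, and how many organoids went into a library is not stated by the labels.

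Cerebral organoids are aggregates of pluripotent cells that form a neuroepithelium and then, over weeks, layered tissue with radial glia, intermediate progenitors and neurons. In the developing cortex radial glia divide at the ventricle, proneural transcription factors push their daughters out of the cell cycle, and deep-layer neurons are born before upper-layer neurons. FEZ1 is an adaptor that links cargo to kinesin-1, the motor that carries vesicles along axonal microtubules toward the synapse.

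The 6 FEZ1-null libraries held 15668253 to 21926380 counts each. At day 60 both carry the label code B16, and at day 10 replicates 1 and 2 carry B16, replicate 3 B27 and replicate 4 B29; the meaning of the codes is not given. Replicate 1 of day 10 stood apart: ribosomal protein genes took 14.2% of its counts, against 8.59% to 10.6% in the other day 10 libraries and 5.41% and 5.57% at day 60. Among wildtype libraries, the B16 libraries of day 10 stood apart from the B27 and B29 libraries. The labels do not say that libraries came from separate cultures, so the spread behind each p-value is that between libraries and may be technical. The label of cerebral organoid was checked at day 60 by the progenitor gene PAX6, at 354 and 333 CPM, and by TBR1 of early cortical neurons, at 216 and 169.5 CPM. The same libraries held HOX genes, which forebrain tissue does not use, at 590.7 and 889.8 CPM in sum, and of 16 forebrain genes 4 were higher and 5 lower than at day 10.

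FEZ1 itself was counted in every FEZ1-null library. Its level was 47.6 and 48.4 CPM at day 60, against 22.7, 20.2, 20.02 and 19.4 CPM at day 10 (log2 fold change 1.22 ± 0.13, adjusted p = 1.71e-05; SE, n = 2 and 4 libraries, as for all FEZ1-null values below). The residual counts were therefore higher at day 60, with no overlap between the days. In wildtype organoids FEZ1 stood at 239.9 and 197 CPM at day 60, against 40.5, 43.3, 45.5 and 49.0 CPM at day 10, above every FEZ1-null library of the same day. Whether these remaining reads come from edited transcripts cannot be read from counts per gene. The paralogue FEZ2 did not pass the test (log2 fold change -0.09 ± 0.15, adjusted p = 0.597).

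Between day 60 and day 10, 10227 of 17757 tested genes (57.6%) changed at an adjusted p below 0.05 in edgeR's quasi-likelihood test. Of these, 5444 were higher at day 60 (30.7% of genes tested) and 4783 lower (26.9%), and the median log2 fold change over all genes tested was 0.03. A further test asked for a change beyond 2-fold, and 2729 genes (15.4%) passed it upward and 1549 (8.72%) downward. Without day 60 replicate 1, 926 passed it downward, and without replicate 2, 990. These percentages are the background for every list count below. Of genes tested, 100 had 0 counts in all FEZ1-null day 10 libraries and 47 in all those of day 60. Genes at or near 0 on 1 day passed the filter on low counts only through other libraries. The direction of their calls was therefore largely fixed, in every list below. The libraries of the days did not overlap for 6567 genes (37%) with day 60 above and for 5614 genes (31.6%) with day 60 below. In bulk tissue, fewer cells of a type and less RNA per cell cannot be told apart.

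Most of the 10 genes with the largest rise among those with a mean of at least 1 CPM at day 10 are known from neurons. ISLR2, a membrane protein of growing axons, stood at 677 and 633 CPM at day 60, against 1.75, 1.13, 0.91 and 1.99 CPM at day 10 (log2 fold change 8.83 ± 1.18). NSG2, a neuronal vesicle protein, stood at 395 and 381 CPM at day 60, against 0.698, 0.235, 0.728 and 2.51 CPM at day 10 (8.59 ± 0.83). Both were near 1 CPM in most day 10 libraries and far above that in both day 60 libraries. STMN2, a microtubule regulator of growth cones, TBR1, the transcription factor of early deep-layer neurons, and LONRF2 followed at 7.41, 7.39 and 6.83 log2 units. The adhesion genes CNTN1 and OPCML rose by 6.70 and 6.60, the chromatin remodeller ATPase SMARCA2 by 6.53, the axon guidance ligand SLIT1 by 6.34 and RUNDC3A by 6.34, all on the log2 scale with adjusted p between 2.7e-07 and 0.0015 for the group of 10.

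The 10 largest falls among genes still above 1 CPM at day 60 included genes of epithelium and of early embryonic cells. DSP, which encodes the desmosome protein desmoplakin, stood at 1.07 and 1.42 CPM at day 60, against 81.5, 178, 189.6 and 201 CPM at day 10 (log2 fold change -7.01 ± 1.18, adjusted p = 0.000442). SALL4, a zinc finger factor of pluripotent and early embryonic cells, stood at 2.66 and 2.64 CPM at day 60, against 179, 217, 239.9 and 259 CPM at day 10 (log2 fold change -6.40 ± 0.39, adjusted p = 3.38e-07). The 2 day 60 libraries lay far below all 4 day 10 libraries for both genes. FREM2, a basement membrane protein, PAMR1, CAPN6 and BST2, a surface protein induced by interferon, fell by 104-fold, 97.0-fold, 91.8-fold and 87.5-fold. PRTG, an immunoglobulin family receptor, the DM domain factor DMRTA1, TPBG and the heparan sulfate proteoglycan GPC3 fell by 76.1-fold, 74.2-fold, 72.6-fold and 60.9-fold. For TPBG the levels were 15.1 and 21.6 CPM at day 60, against 1293, 1265, 1502 and 1265 CPM at day 10.

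**Figure D1:**
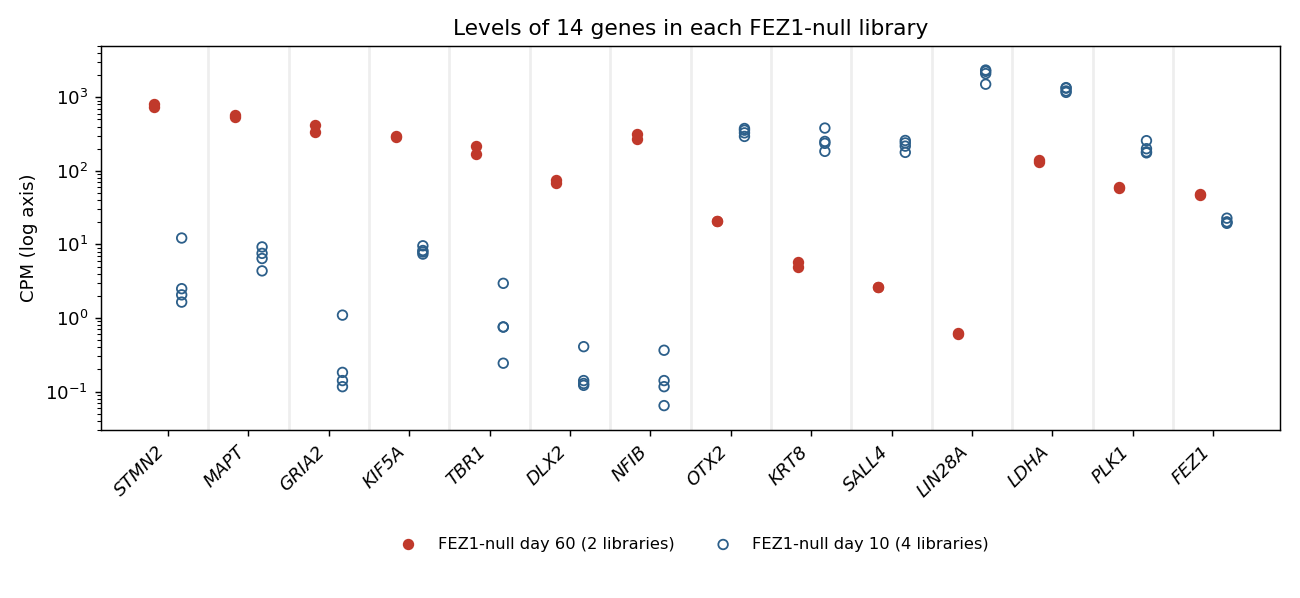
Levels of 14 genes in CPM on a log axis, each point 1 library, with FEZ1-null day 60 (filled, 2 libraries) left of FEZ1-null day 10 (open, 4 libraries). For each gene the points of the days do not overlap, and LIN28A lies at 0.622 and 0.61 CPM at day 60 against 1508 to 2349 CPM at day 10.

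All 18 pan-neuronal genes rose, 16 of them past 2-fold, and their median log2 fold change was 5.01, against 0.03 over all genes tested. Their summed level was 6830.3 to 7000.2 CPM at day 60, against 714 to 1045 CPM at day 10. STMN2 stood at 803 and 739 CPM at day 60, against 2.50, 1.64, 2.06 and 12.2 CPM at day 10. MAPT, the axonal microtubule protein tau, stood at 576 and 538 CPM at day 60, against 9.25, 7.56, 4.37 and 6.43 CPM at day 10 (log2 fold change 6.33 ± 0.65, adjusted p = 1.51e-05). Replicate 4 was the highest of the day 10 libraries for STMN2 and still far below day 60. SNAP25, a SNARE of synaptic vesicle fusion, the neuronal RNA-binding gene ELAVL4 and the secretogranin gene SCG2 rose by 7.91, 6.49 and 6.30 on the log2 scale. The neurofilament genes NEFL and NEFH rose less, by 2.86 and 1.37 log2 units. TUBB3, the neuronal beta tubulin, was already at 788, 518, 389 and 432 CPM at day 10 and stood at 1687 and 1712 CPM at day 60 (log2 fold change 1.68 ± 0.48, adjusted p = 0.0112). This call was lost when either day 60 library was left out, with adjusted p = 0.0534 without replicate 1 and 0.0554 without replicate 2.

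Tubulin isotypes divided. Of 12, 8 rose and 3 fell (median log2 fold change 1.53). TUBA1A, the main alpha tubulin of young neurons, stood at 4906 and 4573 CPM at day 60, against 836, 614, 668 and 761 CPM at day 10 (log2 fold change 2.72 ± 0.27, adjusted p = 9.81e-06). TUBB2A and TUBB4A rose by 2.74 and 2.95 log2 units. TUBA1C, another alpha tubulin, stood at 77.1 and 74.1 CPM at day 60, against 311, 230.2, 282 and 247 CPM at day 10 (log2 fold change -1.82 ± 0.24, adjusted p = 8.19e-05), and TUBA1B also fell, by 1.62-fold. Tubulin genes are close paralogues, so the way reads were shared between copies may move these values.

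Kinesin-1 subunits and reported partners of FEZ1 were tested as a list of 15, of which 12 rose and none fell (median log2 fold change 1.43). KIF5A, the neuron-restricted kinesin-1 heavy chain, stood at 295 and 292 CPM at day 60, against 7.39, 8.26, 7.89 and 9.58 CPM at day 10 (log2 fold change 5.15 ± 0.35, adjusted p = 7.04e-07). KIF5C, another heavy chain, stood at 598 and 559 CPM at day 60, against 111, 235, 254 and 259.8 CPM at day 10 (log2 fold change 1.43 ± 0.26, adjusted p = 0.000645). The ubiquitous heavy chain KIF5B, at 286 and 263 CPM at day 60, against 85.3, 206, 218 and 252 CPM at day 10, did not pass the test (log2 fold change 0.53 ± 0.31, adjusted p = 0.165), though it passed as higher within B16 (adjusted p = 0.0492). Replicate 1 was the lowest day 10 library for both KIF5C and KIF5B. The light chains KLC1 and KLC4 rose by 1.59 and 1.62 log2 units. Among partners, CLASP2, a microtubule plus-end protein, rose by 2.21 log2 units. SCOC and NEK1 did not pass, at log2 fold changes of 0.32 (adjusted p = 0.12) and -0.46 (adjusted p = 0.206). SCOC passed as higher without day 10 replicate 4 (adjusted p = 0.046) and within B16 (adjusted p = 0.0165), and NEK1 as lower without day 10 replicate 1 (adjusted p = 0.00126).

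Genes of synaptic vesicles and release rose as a group, 25 of 29 with 1 fall (median log2 fold change 3.005). CPLX1, a complexin that clamps vesicle fusion, stood at 88.0 and 89.9 CPM at day 60, against 0.116, 0.0469, 0 and 0.129 CPM at day 10 (log2 fold change 10.16 ± 1.55). CPLX2 rose by 7.83 log2 units. SYT1, the calcium sensor of release, stood at 140.0 and 124 CPM at day 60, against 14.7, 22.9, 18.7 and 23.4 CPM at day 10 (log2 fold change 2.73 ± 0.18, adjusted p = 5.17e-07), and the synapsin SYN1 rose by 3.52 log2 units. The member that fell was VAMP1, by 1.52-fold (adjusted p = 0.00121), whereas its homologue VAMP2 rose by 1.39 log2 units; these 2 were chosen after their values were seen.

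Receptor genes for both classes of fast transmission rose. Of 24 glutamate receptor subunits, 20 rose and 1 fell (median log2 fold change 2.74), and 2 fell within B16. GRIA2, the AMPA receptor subunit that limits calcium entry, stood at 415 and 336 CPM at day 60, against 0.116, 0.141, 0.182 and 1.09 CPM at day 10 (log2 fold change 10.00 ± 1.75, adjusted p = 0.000578). GRIN1, the obligatory NMDA receptor subunit, stood at 90.0 and 92.8 CPM at day 60, against 0.407, 0.235, 0.121 and 0.322 CPM at day 10 (log2 fold change 8.37 ± 0.30, adjusted p = 1.88e-08). The highest day 10 value of either gene was that of GRIA2 in replicate 4. GRIN2B, the NMDA subunit of the fetal brain, rose by 3.66 log2 units, whereas GRIN2A, which in cortex follows after birth, did not pass the test (log2 fold change -0.62 ± 0.55, adjusted p = 0.35). GRIN3B was the subunit that fell, by 4.35-fold. Of 17 GABA and glycine receptor subunits, 16 rose and none fell; 1 fell with upper-quartile factors, without day 60 replicate 2 and without day 10 replicate 1. Their fitted median was 4.596, and 4.09 with the 4 genes at 0 in all libraries of day 10 set to a floor of 3 counts over the group. These 4 genes passed the filter on low counts only through other libraries, so they could not be called lower. GLRA2, the fetal glycine receptor subunit, stood at 11.4 and 11.6 CPM at day 60, against 0.0582, 0.188, 0.243 and 0.129 CPM at day 10 (log2 fold change 6.15 ± 0.41, adjusted p = 6.16e-07).

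Channels that make neurons excitable followed. Of 24 sodium and calcium channel subunits, 21 rose and 1 fell (median log2 fold change 2.61), the fall being lost without day 60 replicate 2. SCN2A, the axonal sodium channel of immature neurons, stood at 42.3 and 39.7 CPM at day 60, against 0.291, 0.141, 0.121 and 0.193 CPM at day 10 (log2 fold change 7.74 ± 0.24, adjusted p = 8.09e-09). Its day 10 values rest on few counts, so this SE may be smaller than the counting error. SCN3A and the accessory subunit SCN3B rose by 5.30 and 7.09, and the calcium channel gene CACNA1E by 4.86 log2 units. Of 34 potassium channel subunits, 29 rose and 2 fell (median log2 fold change 3.30). KCNJ9, which forms G protein-gated channels, stood at 43.5 and 42.1 CPM at day 60, against 0.175, 0.0469, 0 and 0.0643 CPM at day 10. Postsynaptic scaffolds and adhesion genes changed less as a list, 24 of 35 up and 2 down (median log2 fold change 1.07), with 4 down without day 10 replicate 1. LRRTM2, a synaptic organiser, stood at 76.8 and 66.2 CPM at day 60, against 0, 0.282, 0.303 and 0.193 CPM at day 10 (log2 fold change 8.45 ± 0.38, adjusted p = 6.34e-08).

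Genes that set the transmitter summed to 355 to 368 CPM at day 60, against 30.5 to 46.2 CPM at day 10. Of 14 tested, 11 rose and none fell (median log2 fold change 4.85); TPH2 and SLC6A4, of serotonin neurons, were too low to test. SLC17A7, the vesicular glutamate transporter of cortex, stood at 161 and 136 CPM at day 60, against 6.05, 3.99, 3.64 and 3.79 CPM at day 10 (log2 fold change 5.09 ± 0.34, adjusted p = 7.04e-07). GAD2, which makes GABA, stood at 25.9 and 27.6 CPM at day 60, against 0.116, 0.188, 0.0607 and 0 CPM at day 10 (log2 fold change 8.001 ± 0.55, adjusted p = 7.8e-07). SLC17A6 and SLC32A1, vesicular transporters of glutamate and GABA, rose by 6.65 and 6.21 log2 units. SLC6A5, the glycine transporter of spinal cord and brainstem neurons, stood at 4.36 and 10.7 CPM at day 60, against 0 counts in all 4 day 10 libraries, at least 181-fold higher. Replicate 2 held the higher of these day 60 values. SLC6A5 and GAD2, at or near 0 at day 10, passed the filter on low counts only through other libraries. They could therefore hardly be called lower.

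Neuronal RNA-binding genes changed in both directions, 17 up and 3 down of 24 (median log2 fold change 1.72). PTBP1, the repressor of neuronal exons in progenitors, stood at 327 and 346 CPM at day 60, against 1000.5, 774, 792 and 700.0 CPM at day 10 (log2 fold change -1.28 ± 0.15, adjusted p = 3.2e-05). Its neuronal homologue PTBP2 did not pass (log2 fold change 0.04 ± 0.15, adjusted p = 0.86). SRRM4, which activates neural microexons, rose by 4.70, ELAVL3 by 6.22 and CELF3 by 5.82 log2 units. MBNL3, another splicing regulator, fell by 6.43-fold. Among SLIT, ROBO, netrin, semaphorin and plexin genes 24 of 37 rose and 6 fell (median log2 fold change 1.45). SLIT1 stood at 481 and 506 CPM at day 60, against 7.04, 4.84, 5.88 and 6.56 CPM at day 10, its receptor gene ROBO2 at 172 and 145 CPM at day 60, against 7.91, 13.0, 11.7 and 26.3 CPM at day 10 (log2 fold change 3.43 ± 0.80, adjusted p = 0.00351), and the plexin genes PLXNA4 and PLXNA2 rose by 6.25 and 4.57 log2 units. The semaphorin gene SEMA3A fell by 4.77-fold. Without day 60 replicate 1, 3 members in place of 6 passed as lower.

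**Figure D2:**
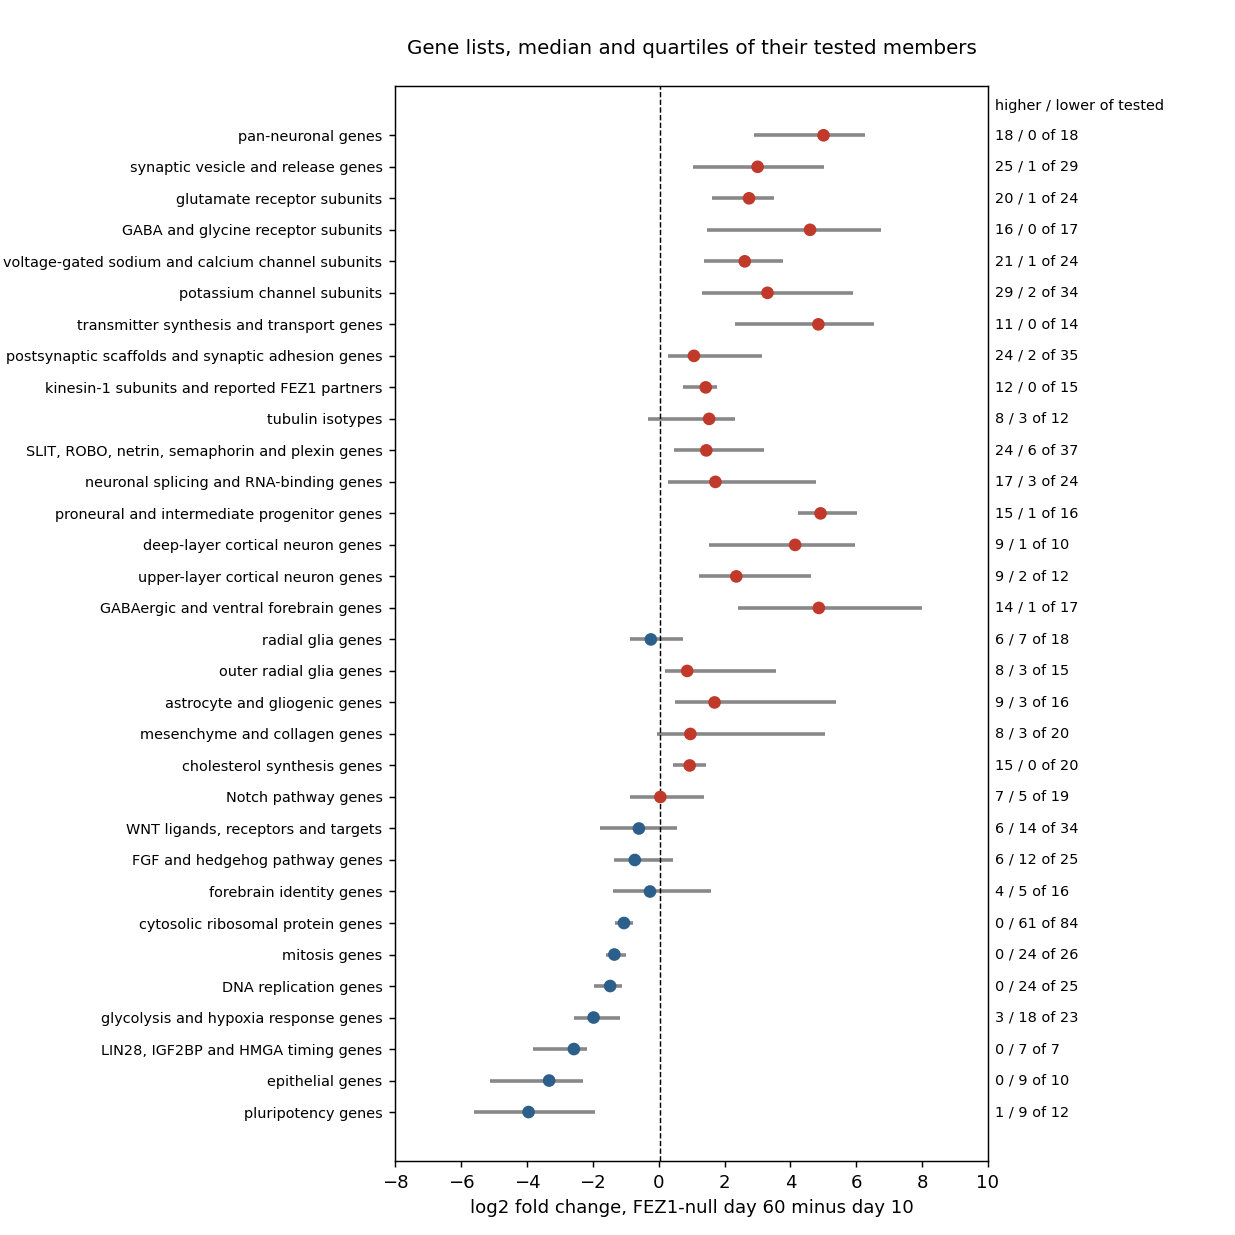
Median (point) and quartiles (bar) of the log2 fold change of FEZ1-null day 60 minus day 10 for 32 of the 48 lists, with the members called higher and lower out of those tested at the right. The dashed line is the median of all genes tested, 0.03, and medians of the lists shown run from pan-neuronal genes at 5.01 to pluripotency genes at -3.95. Lists not shown include HOX genes (fitted median 9.73), retina and pigment, midbrain and hindbrain, and neural crest genes.

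Of 16 proneural factors and markers of intermediate progenitors 15 rose (median log2 fold change 4.91), and BTG2 fell. In place of 15, 13 passed as higher without the filter on low counts, and 9 with replicate number as a block in the fit. It was also 13 when day 10 replicate 1, 2 or 3 was left out. NEUROD2 and NEUROD6 act in newborn excitatory neurons. NEUROD2 stood at 375 and 329 CPM at day 60, against 0, 0.0469, 0.121 and 0.0643 CPM at day 10 (log2 fold change 12.44 ± 0.49). These day 10 values rest on few counts, so the SE may be smaller than the counting error. NEUROD6 stood at 254 and 210.1 CPM at day 60, against 0, 0.0469, 0 and 0 CPM at day 10. Its day 10 value rests on 1 count, and the ratio of the days was 16280.0 with a 95% counting interval of 2921 to 643090.0. EOMES, the marker of cortical intermediate progenitors, stood at 67.8 and 58.9 CPM at day 60, against 1.34, 0.939, 0.364 and 3.09 CPM at day 10 (log2 fold change 5.48 ± 0.59, adjusted p = 1.71e-05). NEUROG2, the dorsal proneural factor, stood at 184 and 183 CPM at day 60, against 7.62, 7.23, 10.98 and 10.16 CPM at day 10 (log2 fold change 4.35 ± 0.22, adjusted p = 1.02e-07). For all 4 of these genes both day 60 libraries lay above all 4 day 10 libraries. NEUROD2 and NEUROD6, near 0 at day 10, passed the filter on low counts only through other libraries. They could therefore hardly be called lower.

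Radial glia genes did not move together, with 6 up and 7 down of 18 (median log2 fold change -0.24). Their shares were 33.3% and 38.9%, beside the 30.7% and 26.9% of all genes tested. SOX2, which marks neural stem cells, did not pass the test, at 390.1 and 433 CPM at day 60, against 529.6, 540.3, 500.2 and 481 CPM at day 10 (log2 fold change -0.32 ± 0.30, adjusted p = 0.384). SLC1A3, a glutamate transporter of mature radial glia and astrocytes, stood at 183 and 171 CPM at day 60, against 11.9, 13.1, 11.5 and 23.2 CPM at day 10 (log2 fold change 3.57 ± 0.26, adjusted p = 1.23e-06). FABP7, the brain lipid-binding protein of radial glia, stood at 265 and 230.3 CPM at day 60, against 54.8, 44.8, 27.2 and 29.6 CPM at day 10 (log2 fold change 2.66 ± 0.27, adjusted p = 1.11e-05), and SOX1 rose by 2.60 log2 units. Among members that fell, N-cadherin, CDH2, stood at 176 and 176 CPM at day 60, against 383, 518, 545 and 616 CPM at day 10 (log2 fold change -1.55 ± 0.18, adjusted p = 3.36e-05), and GLI3 and NES fell by 2.77-fold and 2.17-fold. Genes associated with outer radial glia rose in 8 of 15 cases and fell in 3 (median log2 fold change 0.87). Their summed level overlapped between the days, at 1946 to 2033 CPM at day 60, against 1907 to 2365 CPM at day 10. HOPX stood at 11.1 and 16.2 CPM at day 60, against 0.116, 0, 0 and 0 CPM at day 10, and LIFR, MOXD1 and PDGFD rose by 4.96, 4.42 and 3.84 log2 units. ITGB5 fell by 11.8-fold, and TNC, another marker of these cells, did not pass (log2 fold change 0.74 ± 0.76, adjusted p = 0.422).

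Notch pathway genes, which hold progenitors back from differentiation, had 7 rises and 5 falls among 19 (median log2 fold change 0.05, and -0.02 with upper-quartile factors). Their shares of 36.8% and 26.3% stand beside the 30.7% and 26.9% of all genes tested. HES6, a target of proneural factors that opposes HES1, stood at 549.9 and 598 CPM at day 60, against 42.1, 26.2, 18.4 and 19.6 CPM at day 10 (log2 fold change 4.43 ± 0.59, adjusted p = 9.6e-05). The ligand gene DLL4 rose by 4.22 log2 units, whereas DLL1 fell by 1.83-fold. LFNG, which modifies the receptor, stood at 47.1 and 53.9 CPM at day 60, against 454, 322, 312 and 334 CPM at day 10 (log2 fold change -2.82 ± 0.21, adjusted p = 1.43e-06), and the ligand gene JAG1 fell by 4.45-fold. The effector HES5 did not pass (log2 fold change -0.16 ± 0.41, adjusted p = 0.759).

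Genes of both cortical layers were higher at day 60. Of 10 deep-layer genes 9 rose and 1 fell (median log2 fold change 4.14), and of 12 upper-layer genes 9 rose and 2 fell (median log2 fold change 2.36). TBR1 stood at 216 and 169.5 CPM at day 60, against 0.756, 0.751, 0.243 and 2.96 CPM at day 10 (log2 fold change 7.39 ± 0.58, adjusted p = 2.06e-06). BCL11B, of subcerebral projection neurons, stood at 88.3 and 74.3 CPM at day 60, against 2.15, 3.33, 3.82 and 2.70 CPM at day 10 (log2 fold change 4.75 ± 0.26, adjusted p = 2.05e-07). The 4 day 10 libraries lay between 0.243 and 3.82 CPM for these 2 genes. CUX2, of upper layers, stood at 64.2 and 59.3 CPM at day 60, against 11.2, 13.8, 13.4 and 15.3 CPM at day 10 (log2 fold change 2.20 ± 0.21, adjusted p = 7.1e-06). POU3F3, a POU factor of cortical progenitors and upper-layer neurons, stood at 575 and 587 CPM at day 60, against 0.524, 0.657, 0.182 and 2.06 CPM at day 10 (log2 fold change 9.43 ± 0.84, adjusted p = 5.84e-06). TLE4 fell among deep-layer genes, by 4.07-fold, and POU3F1 and UNC5D among upper-layer genes, by 6.73-fold and 6.12-fold. Among 11 Cajal-Retzius and preplate genes 6 rose and 1 fell (median log2 fold change 0.94), with the cortical lamination signal RELN at 99.0 and 114 CPM at day 60, against 1.11, 0.563, 1.64 and 3.41 CPM at day 10 (log2 fold change 6.01 ± 1.45, adjusted p = 0.0043). TP73, of Cajal-Retzius cells, did not pass (log2 fold change 0.81 ± 0.39, adjusted p = 0.0963), though it passed as higher without day 10 replicate 2 (adjusted p = 0.0412).

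GABAergic and ventral forebrain genes rose in 14 of 17 cases with 1 fall (median log2 fold change 4.86). DLX1 stood at 86.1 and 82.0 CPM at day 60, against 0.0582, 0.0469, 0.0607 and 0.129 CPM at day 10 (log2 fold change 10.08 ± 0.72, adjusted p = 1.02e-06). DLX2 stood at 67.9 and 75.3 CPM at day 60, against 0.407, 0.141, 0.121 and 0.129 CPM at day 10 (log2 fold change 8.44 ± 0.61, adjusted p = 1.16e-06). GSX2, of the lateral ganglionic eminence, stood at 13.0 and 13.8 CPM at day 60, against 0 counts in all 4 day 10 libraries, at least 315-fold higher. These 3 genes lay at or below 0.407 CPM in every day 10 library. They passed the filter on low counts only through other libraries, so they could hardly be called lower. NKX2-1 and LHX8, which mark the medial ganglionic eminence, were too low to test, and LHX6 did not pass (log2 fold change 0.08 ± 0.50, adjusted p = 0.91). SP8 fell by 7.63-fold.

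Regional identity genes were mixed. Of 16 forebrain genes 4 rose (25%) and 5 fell (31.2%), with a median log2 fold change of -0.26. Their summed level was higher at day 60, at 2241 to 2419 CPM, against 1459 to 1885 CPM at day 10. The forebrain genes named next were picked from the 5 members that fell and do not stand for the list. OTX2, of early anterior neuroectoderm, stood at 21.1 and 20.7 CPM at day 60, against 294, 329, 358 and 377 CPM at day 10 (log2 fold change -4.02 ± 0.27, adjusted p = 6.88e-07). Each day 60 library had less OTX2 than any day 10 library. OTX1, FEZF1 and EMX2 fell by 11.8-fold, 20.7-fold and 2.50-fold. Of 22 midbrain and hindbrain genes 7 rose and 5 fell (median log2 fold change 0.14). These shares, 31.8% and 22.7%, were near the 30.7% and 26.9% of all genes tested. FGF8, the signal of the midbrain-hindbrain boundary and the anterior neural ridge, stood at 1.24 and 0.864 CPM at day 60, against 60.6, 38.1, 33.4 and 30.5 CPM at day 10 (log2 fold change -5.27 ± 0.88, adjusted p = 0.000425), and LMX1A fell by 14.2-fold. EN2 and PAX5, of the midbrain-hindbrain region, rose by 3.97 and 3.67 log2 units. OTP, a homeobox gene of hypothalamic and brainstem neurons, stood at 14.5 and 31.7 CPM at day 60, against 0 counts in all 4 day 10 libraries, with the higher value in replicate 2. Without day 60 replicate 2 the median of this list was -0.94. In place of 7 members 4 passed as higher without day 60 replicate 1, day 60 replicate 2 or day 10 replicate 2, and 3 as lower without day 60 replicate 1.

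Retina and pigment genes also changed, 11 up and 3 down of 18 (median log2 fold change 2.09). Their summed level was lower at day 60, at 358 to 380 CPM, against 900 to 1313 CPM at day 10. ATOH7, the factor that starts retinal ganglion cell formation, stood at 44.7 and 37.4 CPM at day 60, against 0.64, 0.563, 0.849 and 0.643 CPM at day 10 (log2 fold change 5.92 ± 0.36, adjusted p = 3.03e-07), and POU4F2, of ganglion cells, stood at 49.5 and 44.9 CPM at day 60, against 0 counts in all 4 day 10 libraries, at least 1107-fold higher. PMEL, a pigment granule protein, stood at 38.7 and 51.7 CPM at day 60, against 736, 484, 403 and 408 CPM at day 10 (log2 fold change -3.49 ± 0.29, adjusted p = 2.76e-06), whereas the melanin enzyme gene TYR rose by 6.15 log2 units. RAX and MITF, early factors of the eye field and pigment epithelium, did not pass (log2 fold change -1.05 ± 0.996, adjusted p = 0.387 and log2 fold change 0.11 ± 0.31, adjusted p = 0.779), though RAX passed as lower in FEZ1-null libraries alone (adjusted p = 0.0293). Without day 60 replicate 2, 7 members passed as higher.

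HOX genes give position along the body axis behind the forebrain and are silent in forebrain tissue. Of 39 HOX genes 23 could be tested and 22 rose, 17 of the 23 with 0 counts in all 4 day 10 libraries. Genes at or near 0 at day 10 passed the filter on low counts only through other libraries, such as those of day 60. The count of rises was therefore largely fixed by the filter. The summed level of the tested genes was 590.7 and 889.8 CPM at day 60, against 0 to 0.322 CPM at day 10. HOXB8 stood at 118 and 176 CPM at day 60, against 0 counts in all 4 day 10 libraries, at least 3495-fold higher. HOXB5 stood at 109 and 118 CPM at day 60, against 0 counts in all 4 day 10 libraries, at least 2673-fold higher. HOXB3 stood at 119 and 166 CPM at day 60, against 0.0582, 0.0469, 0 and 0 CPM at day 10, which rests on 2 counts at day 10 and gives a ratio of 5081 with a 95% counting interval of 1406 to 41970.0. Every tested HOXB gene from HOXB2 to HOXB9 rose. HOXA genes reached 6.45 and 15.2 CPM at day 60 in HOXA4, HOXC genes 17.5 and 31.96 CPM in HOXC4, and HOXD genes 0.453 and 3.56 CPM in HOXD4. With genes at 0 set to the floor, the median log2 difference was at least 7.24. HOXC9 did not pass, and the 16 untested genes had at most 59 counts over the day 60 libraries. In 21 of the 23 genes replicate 2 was above replicate 1 at day 60. The HOX clusters carry antisense transcripts, and whether counting used the strand is not given, so such reads cannot be told apart.

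**Figure D3:**
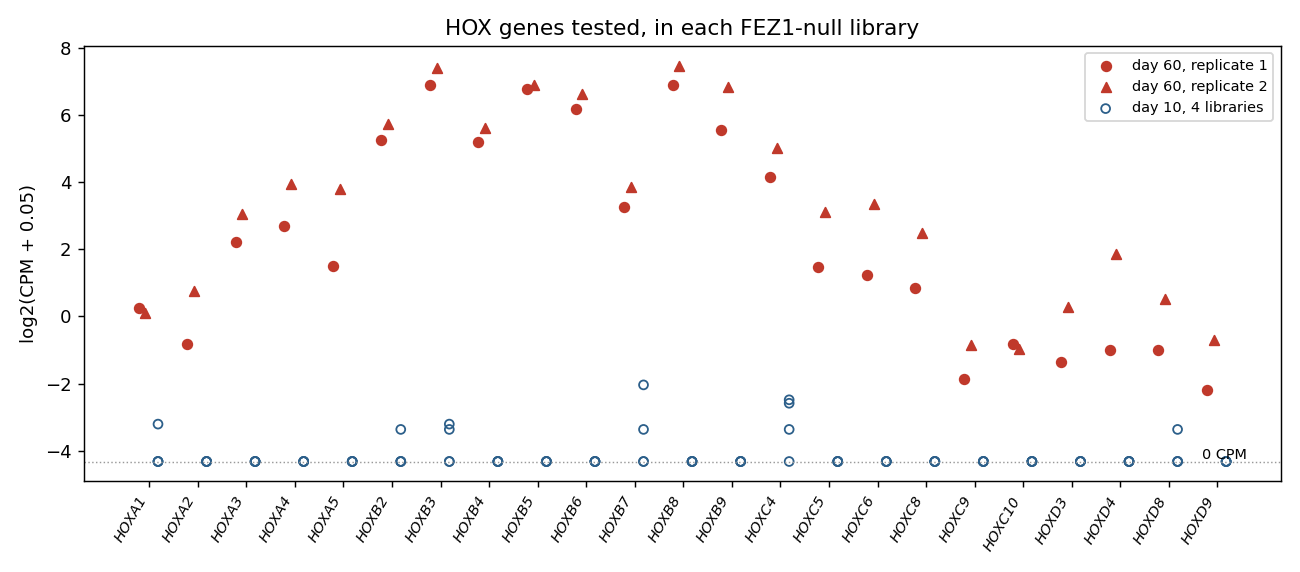
Level of each tested HOX gene as log2(CPM + 0.05) in the FEZ1-null libraries of day 60 (filled, circle for replicate 1 and triangle for replicate 2) and day 10 (open, 4 libraries). Nearly all day 10 points lie on the dotted line of 0 CPM, HOXB8 stands at 118 and 176 CPM at day 60, and the triangle lies above the circle in 21 of 23 genes.

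Genes of cell division fell. Of 26 mitosis genes 24 fell and none rose, 11 past 2-fold (median log2 fold change -1.35), and their summed level was 2411 to 2505 CPM at day 60, against 4942 to 5870.3 CPM at day 10. BIRC5, which encodes survivin of the chromosomal passenger complex, stood at 45.7 and 44.6 CPM at day 60, against 203, 149, 149 and 148 CPM at day 10 (log2 fold change -1.85 ± 0.22, adjusted p = 3.66e-05). PLK1, the polo kinase of mitotic entry, stood at 58.5 and 59.7 CPM at day 60, against 258, 181, 200.2 and 176 CPM at day 10 (log2 fold change -1.79 ± 0.22, adjusted p = 4.17e-05). DLGAP5 and the passenger kinase gene AURKB fell by 3.56-fold and 3.50-fold. In each of these the highest day 60 library lay below the lowest day 10 library. MKI67 and CDK1 did not pass (log2 fold change -0.46 ± 0.23, adjusted p = 0.105 and log2 fold change -0.52 ± 0.26, adjusted p = 0.11), though MKI67 passed as lower without day 10 replicate 1 (adjusted p = 0.00246). Of 25 DNA replication genes 24 fell and none rose, 16 past 2-fold (median log2 fold change -1.47). CDT1, the licensing factor that loads the MCM helicase, stood at 25.1 and 31.1 CPM at day 60, against 330.4, 203, 211 and 189 CPM at day 10 (log2 fold change -3.05 ± 0.34, adjusted p = 2.16e-05), and GINS4, CDC6 and MCM3 fell by 7.16-fold, 4.76-fold and 4.75-fold. CDC6 was almost level across day 10, at 59.0, 59.5, 59.5 and 59.7 CPM.

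Many mitosis genes share 2 promoter elements, the CHR, whose core reads TTTGAA, and CCAAT boxes bound by NF-Y. The 4 members with the largest falls whose window held both are shown because the list moved together. Windows run from 250 bases before to 50 bases after the RefSeq start (GRCh38.p14), are written from 5' to 3' on the gene's strand, and have TTTGAA and CCAAT of either strand in capitals. They are chr14:55191536-55191835 (minus strand), chr16:23678639-23678938 (plus), chr15:59104896-59105195 (plus) and chr1:43358731-43359030 (plus).
DLGAP5: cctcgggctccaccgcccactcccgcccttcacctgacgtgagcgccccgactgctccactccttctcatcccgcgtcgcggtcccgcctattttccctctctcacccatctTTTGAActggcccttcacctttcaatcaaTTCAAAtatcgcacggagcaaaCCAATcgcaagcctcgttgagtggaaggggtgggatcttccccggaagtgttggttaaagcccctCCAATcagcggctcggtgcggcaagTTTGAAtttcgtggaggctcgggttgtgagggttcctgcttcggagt
PLK1: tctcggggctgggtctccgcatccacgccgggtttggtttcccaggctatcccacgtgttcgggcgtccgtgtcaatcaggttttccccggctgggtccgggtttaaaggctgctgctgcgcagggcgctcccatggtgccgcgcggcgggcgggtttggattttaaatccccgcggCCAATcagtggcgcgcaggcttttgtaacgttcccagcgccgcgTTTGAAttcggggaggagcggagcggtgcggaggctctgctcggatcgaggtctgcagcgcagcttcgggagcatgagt
CCNB2: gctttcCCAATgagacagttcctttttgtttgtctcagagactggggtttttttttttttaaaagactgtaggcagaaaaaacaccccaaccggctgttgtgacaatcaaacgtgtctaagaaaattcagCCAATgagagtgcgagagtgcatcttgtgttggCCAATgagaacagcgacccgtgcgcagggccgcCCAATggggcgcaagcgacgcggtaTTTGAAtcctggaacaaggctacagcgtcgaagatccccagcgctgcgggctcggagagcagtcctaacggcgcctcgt
CDC20: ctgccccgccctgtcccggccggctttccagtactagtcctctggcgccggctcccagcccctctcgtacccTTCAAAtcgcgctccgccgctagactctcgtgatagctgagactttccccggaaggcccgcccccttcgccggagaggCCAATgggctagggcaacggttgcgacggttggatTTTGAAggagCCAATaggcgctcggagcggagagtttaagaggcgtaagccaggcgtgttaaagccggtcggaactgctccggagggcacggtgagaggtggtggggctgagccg
Beside these sequences stand the falls of 3.56-fold, 3.45-fold, 3.21-fold and 2.57-fold. A window was found for 21 of the 26 mitosis genes, and 12 of these (57.1%) held both elements. Against this stood 1661 of 27305 windows of all genes (6.08%) and 555 of 13209 windows of genes tested (4.2%). In the replication list it was 1 of 21 windows (4.76%). TTTGAA, with or without CCAAT, was in 14 of the 21 mitosis windows (66.7%) and in 15.4% of all windows. CCAAT, with or without TTTGAA, was in 18 mitosis windows (85.7%) and in 35.7% of all windows. A match describes letters and does not show a bound site.

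Genes of pluripotent cells fell. Of 12 tested 9 fell and 1, PODXL, rose (median log2 fold change -3.95). NANOG, TDGF1, GDF3 and PRDM14 were too low to test. Over the FEZ1-null day 10 libraries they had 1, 1, 2 and 37 counts, so they were already low or near absent at day 10. The call of PODXL was lost without day 60 replicate 2 (adjusted p = 0.0588). LIN28A, which blocks maturation of let-7 microRNAs, stood at 0.622 and 0.61 CPM at day 60, against 2349, 2255, 2102 and 1508 CPM at day 10 (log2 fold change -11.69 ± 0.44, adjusted p = 1.88e-08). POU5F1 stood at 0.566 and 0.559 CPM at day 60, against 10.5, 6.62, 5.88 and 3.15 CPM at day 10 (log2 fold change -3.52 ± 0.67, adjusted p = 0.000944), and TERT and DPPA4 fell by 40.4-fold and 30.4-fold. LIN28A belongs to a set of genes that are let-7 targets or partners and mark early developmental time, and all 7 of them fell (median log2 fold change -2.57). LIN28B stood at 6.05 and 7.52 CPM at day 60, against 67.8, 159, 169.5 and 179 CPM at day 10 (log2 fold change -4.40 ± 0.40, adjusted p = 5.33e-06). HMGA1, a chromatin protein of dividing progenitors, stood at 266 and 277 CPM at day 60, against 3479.7, 2068, 2448 and 2149.7 CPM at day 10 (log2 fold change -3.23 ± 0.30, adjusted p = 6.16e-06). HMGA2, IGF2BP1 and IGF2BP3 fell by 5.95-fold, 5.81-fold and 3.55-fold.

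Subunits of the BAF remodeller are exchanged as progenitors become neurons. Of 22 listed, 8 rose and 7 fell (median log2 fold change -0.06, and 0.04 without day 10 replicate 1). These shares, 36.4% and 31.8%, were near the 30.7% and 26.9% of all genes tested. ACTL6B, the actin-related subunit of neurons, stood at 43.7 and 45.4 CPM at day 60, against 0.291, 0.235, 0.121 and 0.322 CPM at day 10 (log2 fold change 7.49 ± 1.17, adjusted p = 0.000267). Its progenitor counterpart ACTL6A stood at 63.1 and 63.4 CPM at day 60, against 92.9, 95.9, 79.0 and 75.2 CPM at day 10 (log2 fold change -0.44 ± 0.14, adjusted p = 0.0172), a call lost without either day 60 library (adjusted p = 0.0943 and 0.0927) and in FEZ1-null libraries alone (adjusted p = 0.063). The ATPase SMARCA2 stood at 106 and 96.9 CPM at day 60, against 0.64, 1.27, 0.91 and 1.54 CPM at day 10 (log2 fold change 6.53 ± 0.42, adjusted p = 5.42e-07), whereas the alternative ATPase SMARCA4 fell by 1.48-fold, a call lost without day 60 replicate 1 (adjusted p = 0.0658). DPF1, DPF3 and SMARCD3, subunits of the neuronal complex, rose by 2.34, 5.78 and 2.32 log2 units, and SMARCC1 and SMARCD2 fell by 3.02-fold and 3.18-fold. Among 12 DNA methylation genes 3 rose and 3 fell (median log2 fold change 0.03, and -0.04 with upper-quartile factors), and 5 rose without day 10 replicate 1. The shares of rises and of falls were 25% each, also near those of all genes tested. DNMT3B, the early embryonic methyltransferase, stood at 44.98 and 42.2 CPM at day 60, against 248, 275, 325 and 251.5 CPM at day 10 (log2 fold change -2.66 ± 0.24, adjusted p = 5.05e-06). DNMT3A did not pass (log2 fold change -0.01 ± 0.12, adjusted p = 0.934), and TET3, which oxidises methylcytosine, rose by 1.88 log2 units.

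Glycolysis and hypoxia-response genes fell in 18 of 23 cases, 16 past 2-fold, and rose in 3 (median log2 fold change -1.98). Their summed level was 4144 to 4192 CPM at day 60, against 15678 to 24432 CPM at day 10. LDHA, which makes lactate, stood at 142 and 131 CPM at day 60, against 1333, 1168, 1221 and 1356 CPM at day 10 (log2 fold change -3.21 ± 0.14, adjusted p = 5.21e-08). ENO1, an enolase, stood at 487 and 501 CPM at day 60, against 5125, 3322, 2607 and 2747 CPM at day 10 (log2 fold change -2.80 ± 0.28, adjusted p = 9.96e-06). SLC2A1 and SLC2A3, the glucose transporters, fell by 7.45-fold and 9.71-fold. PFKFB4, a regulator of phosphofructokinase, fell by 12.9-fold, HK2 by 7.04-fold and PGK1 by 5.06-fold. The 3 members that rose were hypoxia targets outside glycolysis. VEGFA, the vessel growth factor, stood at 471 and 425 CPM at day 60, against 247, 231, 214 and 229 CPM at day 10 (log2 fold change 0.96 ± 0.12, adjusted p = 6.29e-05), NDRG1 rose by 2.41 and the carbonic anhydrase gene CA9 by 2.77 log2 units. The list therefore did not move as a unit.

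**Figure D4:**
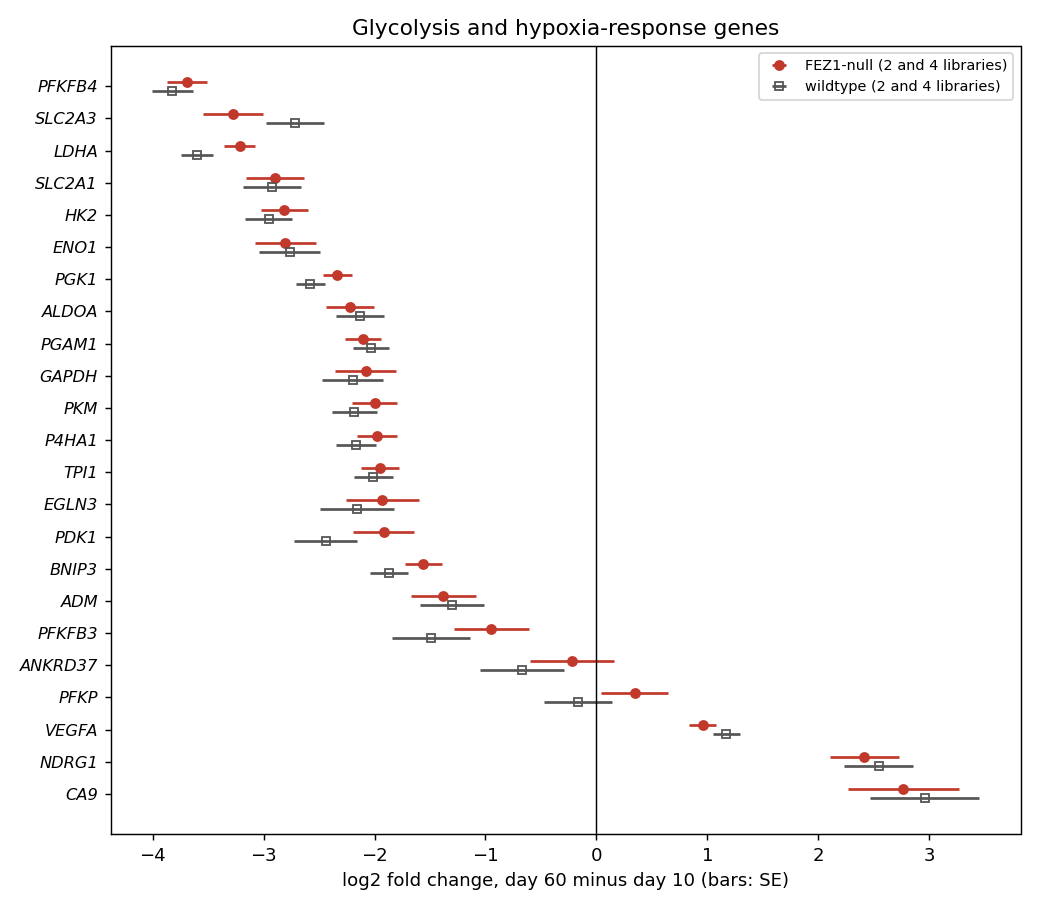
Log2 fold change of day 60 minus day 10 with its SE for 23 glycolysis and hypoxia-response genes, FEZ1-null (filled circle) above wildtype (open square) in each row. In FEZ1-null organoids PFKFB4 lies at -3.69 and CA9 at 2.77, and 18 of 23 members are called lower.

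The hypoxia-inducible factor binds a core written ACGTG, and promoters of LDHA and HK2, chosen after their values were seen, carry it. The windows are chr11:18394313-18394612 and chr2:74833877-74834176 (RefSeq, GRCh38.p14, both plus strand), with ACGTG of either strand in capitals; in LDHA copies of the strands overlap as CACGTG.
LDHA: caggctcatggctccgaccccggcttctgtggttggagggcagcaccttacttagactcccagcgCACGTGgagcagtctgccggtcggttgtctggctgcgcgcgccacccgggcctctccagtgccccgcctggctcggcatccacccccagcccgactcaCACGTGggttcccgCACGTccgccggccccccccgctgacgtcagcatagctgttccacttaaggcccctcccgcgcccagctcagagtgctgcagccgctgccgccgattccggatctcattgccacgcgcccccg
HK2: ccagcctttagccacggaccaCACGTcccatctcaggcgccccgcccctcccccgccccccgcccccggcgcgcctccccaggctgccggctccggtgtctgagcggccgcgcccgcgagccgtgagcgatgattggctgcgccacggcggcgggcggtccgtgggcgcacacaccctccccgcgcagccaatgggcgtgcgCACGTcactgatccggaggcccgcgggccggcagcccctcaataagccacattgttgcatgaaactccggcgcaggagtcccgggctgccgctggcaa
ACGTG was in 9 of the 20 list windows found (45%), against 21.6% of all windows and 25.5% of those of genes tested.

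Cytosolic ribosomal protein genes fell in 61 of 84 cases and none rose, 15 past 2-fold (median log2 fold change -1.05). RPL3 stood at 1698 and 1644 CPM at day 60, against 7348, 4987, 4109.9 and 3843 CPM at day 10 (log2 fold change -1.60 ± 0.24, adjusted p = 0.000183). RPL12 stood at 377 and 363 CPM at day 60, against 2609, 1717, 1490.1 and 1340.1 CPM at day 10 (log2 fold change -2.27 ± 0.26, adjusted p = 2.41e-05). Replicate 1 was the highest day 10 library for both, and without it the list median was -0.82 with 58 members lower and 1 higher. Without day 60 replicate 2, 40 members passed as lower. Nuclear-encoded respiratory chain subunits moved less, 24 of 80 down and 1 up (median log2 fold change -0.34). COX4I1 did not pass (log2 fold change -0.58 ± 0.26, adjusted p = 0.0776), though it passed as lower without day 10 replicate 4 (adjusted p = 0.0412) and within B16 (adjusted p = 0.00836). ATP5MC2, of the ATP synthase, stood at 121 and 119 CPM at day 60, against 573, 372, 347 and 326 CPM at day 10 (log2 fold change -1.75 ± 0.23, adjusted p = 6.33e-05). Without day 10 replicate 1 the median of the list was -0.10, with 24 lower and 4 higher, and 15 members were lower without either day 60 library. Many ribosomal protein genes have processed pseudogenes that may share their reads.

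Cholesterol synthesis genes rose in 15 of 20 cases and none fell (median log2 fold change 0.94). HMGCS1, an early enzyme of the pathway, stood at 1156 and 1086 CPM at day 60, against 195, 348, 338 and 448 CPM at day 10 (log2 fold change 1.75 ± 0.27, adjusted p = 0.000237). INSIG1, a sterol-regulated brake on the pathway, stood at 286 and 285 CPM at day 60, against 54.2, 69.1, 70.1 and 90.0 CPM at day 10 (log2 fold change 2.01 ± 0.17, adjusted p = 3.89e-06). Genes of the unfolded protein and integrated stress responses had 7 rises and 4 falls among 17 (median log2 fold change 0.38). Their summed level was 2011 to 2029 CPM at day 60, below the 2184 to 2966 CPM of day 10. DDIT3, the factor CHOP, stood at 32.4 and 35.4 CPM at day 60, against 8.32, 4.55, 5.70 and 4.44 CPM at day 10 (log2 fold change 2.56 ± 0.39, adjusted p = 0.000205), and TRIB3 and HERPUD1 rose by 3.40 and 2.14 log2 units. The chaperone gene HSPA5 did not pass (log2 fold change -0.01 ± 0.12, adjusted p = 0.944), so the change was in part of the list.

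WNT ligands, receptors and targets had 6 rises and 14 falls among 34 (median log2 fold change -0.60). SP5, a direct target of WNT signalling, stood at 0.17 and 0.61 CPM at day 60, against 77.2, 54.9, 59.1 and 48.0 CPM at day 10 (log2 fold change -7.21 ± 0.43, adjusted p = 2.7e-07). DKK1, a secreted inhibitor and target, stood at 0.396 and 0.406 CPM at day 60, against 38.7, 37.3, 56.9 and 38.8 CPM at day 10 (log2 fold change -6.72 ± 0.76, adjusted p = 2.46e-05). The ligand gene WNT8B of the cortical hem fell by 41.9-fold, while WNT7A, a ligand of cortical progenitors, rose by 5.11 log2 units. Without day 10 replicate 4 the median of the list was 0.11. FGF and hedgehog pathway genes had 6 rises and 12 falls among 25 (median log2 fold change -0.72), with 7 falls without day 60 replicate 1. FGFR3 stood at 461 and 579.7 CPM at day 60, against 107, 83.5, 88.8 and 75.5 CPM at day 10 (log2 fold change 2.55 ± 0.16, adjusted p = 3.49e-07), whereas FGFR1 fell by 3.25-fold. SHH stood at 2.15 and 3.91 CPM at day 60, against 0.0582, 0.0939, 0.121 and 0 CPM at day 10, whereas PTCH1, a hedgehog target, fell by 2.16-fold.

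Genes of cells other than neurons were measured as well. Of 16 astrocyte and gliogenic genes 9 rose and 3 fell (median log2 fold change 1.70). Their summed level did not rise, at 1493.5 to 1497.2 CPM at day 60, against 1492.8 to 1714.5 CPM at day 10. NFIA and NFIB promote the switch of progenitors to making glia. NFIA stood at 122 and 106 CPM at day 60, against 0, 0.141, 0 and 0.0643 CPM at day 10 (log2 fold change 10.82 ± 0.76, adjusted p = 8.88e-07). NFIB stood at 322 and 275 CPM at day 60, against 0.116, 0.141, 0.364 and 0.0643 CPM at day 10 (log2 fold change 10.72 ± 0.40, adjusted p = 1.88e-08). GFAP, the astrocyte filament, stood at 22.6 and 28.8 CPM at day 60, against 0.64, 0.422, 0.667 and 0.322 CPM at day 10 (log2 fold change 5.63 ± 0.42, adjusted p = 1.37e-06), while AQP4 and ALDH1L1, of mature astrocytes, did not pass (log2 fold change 0.12 ± 0.55, adjusted p = 0.864 and log2 fold change 0.63 ± 0.53, adjusted p = 0.333). GJA1 and APOE fell by 19.2-fold and 5.79-fold. Of 8 oligodendrocyte lineage genes tested 4 rose and none fell (2 rose without day 60 replicate 1, and 1 fell within B16 and in FEZ1-null libraries alone), with OLIG2 at 8.88 and 8.99 CPM at day 60, against 0.116, 0, 0.182 and 0.257 CPM at day 10 (log2 fold change 6.03 ± 1.06, adjusted p = 0.000545), and MAG and MOG were too low to test.

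Mesenchyme and collagen genes had 8 rises and 3 falls among 20 (median log2 fold change 0.96), and their summed level was 1396 to 1676 CPM at day 60, against 1157 to 1698 CPM at day 10. COL3A1, a collagen of fibroblasts, stood at 194 and 231 CPM at day 60, against 0.116, 0, 0 and 0 CPM at day 10, from 2 counts at day 10. DCN, a proteoglycan of the same cells, stood at 14.4 and 24.3 CPM at day 60, against 0.0582, 0, 0 and 0 CPM at day 10. Both were present in each day 60 library. COL1A2 and COL1A1 did not pass (log2 fold change 1.29 ± 0.56, adjusted p = 0.0686 and log2 fold change 0.04 ± 0.54, adjusted p = 0.955). COL1A2 passed as higher in DESeq2 (adjusted p = 0.0402), within B16 (adjusted p = 0.00533) and in FEZ1-null libraries alone (adjusted p = 0.00161). The basement membrane gene COL4A1 fell by 4.71-fold. The share of the rises above that mesenchymal cells contribute was not tested. Of 6 endothelial genes tested 3 rose and 1 fell (median log2 fold change 2.06; 2 fell in DESeq2 and in FEZ1-null libraries alone), with the receptor gene KDR at 21.6 and 21.4 CPM at day 60, against 0.698, 1.69, 1.70 and 0.9 CPM at day 10, while the defining marker CDH5 stood at 0.113 and 0.152 CPM at day 60, against 0.175, 0, 0.121 and 0.257 CPM at day 10 and PECAM1 and ERG were too low to test. Of 12 microglia and blood genes 3 could be tested. Of these 2 rose, against 0 without day 60 replicate 2 and 0 in FEZ1-null libraries alone, and AIF1 fell, and the list summed to 1.64 to 3.15 CPM at day 60, against 4.50 to 16.3 CPM at day 10. Of 7 skeletal muscle genes tested 3 rose and 1 fell (median log2 fold change 1.33, and 0.80 within B16), and MYOD1, MYOG and MYF5 were too low to test. The tested muscle genes summed to less at day 60, 28.2 to 35.0 CPM, against 50.2 to 126 CPM at day 10. Of 9 choroid plexus genes tested 2 rose and 3 fell (median log2 fold change -0.41), with 1 rise without day 60 replicate 1 or without day 10 replicate 1. The defining marker TTR stood at 1.58 and 0.914 CPM at day 60, against 0, 0.0469, 0 and 0.0643 CPM at day 10.

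Epithelial genes fell in 9 of 10 cases and none rose (median log2 fold change -3.33), and 4 passed as lower without day 60 replicate 1. KRT8, a keratin of simple epithelia, stood at 4.92 and 5.84 CPM at day 60, against 382, 237, 251.4 and 184 CPM at day 10 (log2 fold change -5.61 ± 1.08, adjusted p = 0.00104). KRT19 and KRT18 fell by 40.4-fold and 21.6-fold. EPCAM did not pass (log2 fold change -0.11 ± 0.62, adjusted p = 0.896). Of 14 neural crest and placode genes 3 rose and 1 fell (median log2 fold change 0.80), with 1 rise without either day 60 library and 5 within B16 or in FEZ1-null libraries alone. FOXD3 and TFAP2B, early factors of the crest, did not pass (log2 fold change 1.24 ± 1.77, adjusted p = 0.568 and log2 fold change -0.33 ± 1.69, adjusted p = 0.882).

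Families were counted too. Of 52 clustered protocadherins tested 6 rose and 20 fell (median log2 fold change -0.61); 8 fell without day 60 replicate 1, 13 without day 60 replicate 2, and 10 rose without day 10 replicate 4. Their variable exons share constant exons within a cluster, so single members are uncertain. Of 496 genes named ZNF, 104 rose and 122 fell (median log2 fold change -0.06), shares of 21.0% and 24.6% beside the 30.7% and 26.9% of all genes tested. Without day 60 replicate 1, 66 rose and 81 fell, and without replicate 2, 70 rose and 79 fell. ZNF521 stood at 26.6 and 38.5 CPM at day 60, against 218, 288, 319 and 305 CPM at day 10 (log2 fold change -3.12 ± 0.44, adjusted p = 0.000127), and ZNF536 rose by 3.13 log2 units. Genes that passed 2-fold upward had a median span of 31.8 kb in RefSeq (GRCh38.p14), against 26.6 kb for those that passed downward and 27.3 kb for all others tested. Of the rising genes 27.5% spanned over 100 kb, against 17.8% of the falling genes and 17.1% of the others.

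The change between days was set against that of wildtype organoids, in which 5195 genes rose (29.3%) and 4642 fell (26.1%). A test of the difference between the genotypes' changes, the interaction, called 0 of 17757 genes in edgeR. There were 1269 genes (7.15%) at an unadjusted p below 0.05, the smallest adjusted p was 0.165, and DESeq2 called 75. FEZ1 itself rose by 1.22 ± 0.13 in FEZ1-null and 2.29 ± 0.13 in wildtype organoids, a difference of -1.07 ± 0.19 (unadjusted p = 0.000128, adjusted p = 0.467). DLX1 rose by 10.08 ± 0.72 in FEZ1-null and 4.86 ± 0.57 in wildtype organoids (unadjusted p = 0.000367, adjusted p = 0.52). PAX5, of the midbrain-hindbrain region, changed by 3.67 ± 0.39 in FEZ1-null and 0.24 ± 0.39 in wildtype organoids (unadjusted p = 7.12e-05, adjusted p = 0.421). None of the 3 differences passed the adjusted threshold.

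Several lists had other medians in wildtype organoids. Pan-neuronal genes stood at 5.01 in FEZ1-null and 2.38 in wildtype organoids, neural crest genes at 0.80 in FEZ1-null and -4.38 in wildtype organoids, and epithelial genes at -3.33 in FEZ1-null and -1.06 in wildtype organoids. Without the B16 wildtype libraries of day 10, a setting chosen for lists after seeing the data, the wildtype medians were 4.94 for pan-neuronal, 1.14 for neural crest and -1.61 for epithelial genes. STMN2 in wildtype organoids stood at 843 and 682 CPM at day 60, against 181, 212, 2.42 and 4.96 CPM at day 10. TFAP2B in wildtype organoids stood at 1.15 and 0.656 CPM at day 60, against 251.3, 387, 3.65 and 2.22 CPM at day 10. Replicates 1 and 2 of wildtype day 10, which carry B16, held these genes at levels that replicates 3 and 4 and the FEZ1-null libraries of day 10 did not. Without the B16 wildtype libraries of day 10 the interaction again called 0 genes, within B16 alone it called 908, and without wildtype day 60 replicate 1 it called 193. Lists of division, replication, glycolysis and timing had close medians, as for replication genes at -1.47 in FEZ1-null and -1.60 in wildtype organoids. HOX genes rose in wildtype organoids as well, 23 of 23 tested, among the genes kept by the same filter on low counts.

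**Figure D5:**
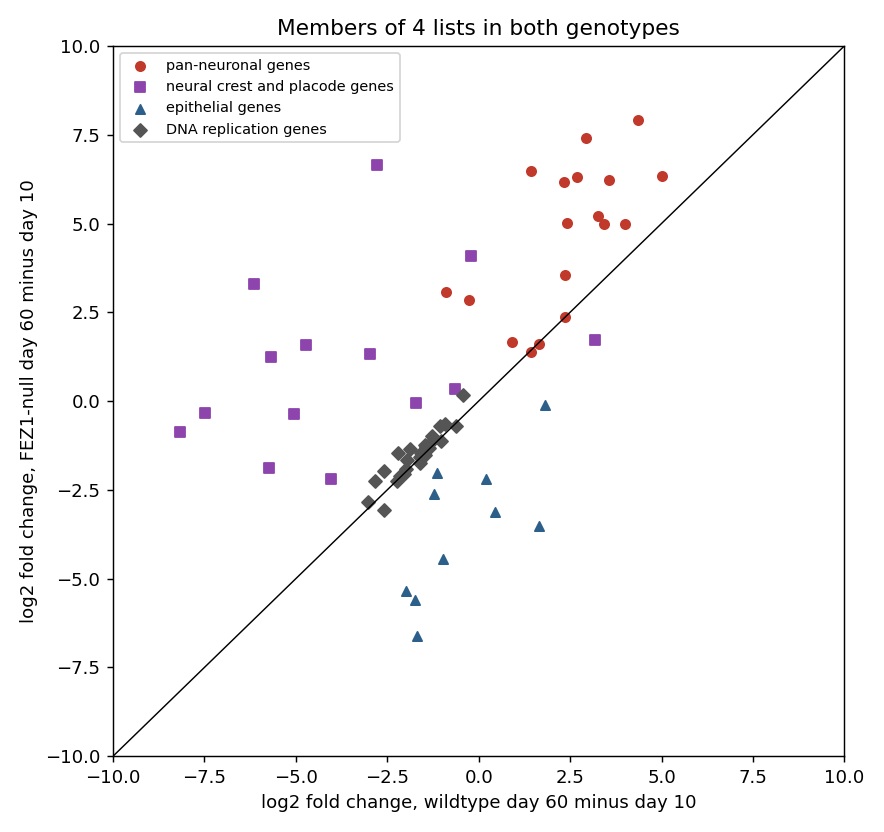
Log2 fold change of day 60 minus day 10 in FEZ1-null organoids (vertical) against wildtype organoids (horizontal) for members of 4 lists, each point 1 gene, with the line of equal change. Replication genes lie along the line, and pan-neuronal and neural crest genes lie mostly above it, with STMN2 at 7.41 in FEZ1-null and 2.93 in wildtype organoids.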

How the data were processed

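Per the labels' protocols, RNA of whole organoids of the H1 line was taken up in TRIzol and a company prepared the libraries. STAR, HTSeq, DESeq2 and hg19 are named in the submitters' processing notes; their versions, the annotation and the strand setting: not given in the sources used here. The authors deposited raw counts per gene symbol, whole numbers summing to 15668253 to 22745658 per library. Their normalized table and their own test were not used.

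From these counts, 1 edgeR quasi-likelihood fit (edgeR 4.0.16, limma 3.58.1, R 4.3.3) of all 12 libraries in 4 groups, with TMM factors and filterByExpr, gave FEZ1-null day 60 minus day 10, the same in wildtype, and the interaction. P-values are two-sided and adjusted by Benjamini-Hochberg over 17757 of 28207 genes; 3350 had no count. Calls need an adjusted p below 0.05, and "past 2-fold" is glmTreat at that fold. The SE is the log2 fold change over the root of F. For genes with few counts in a group it can be smaller than the counting error. CPM use TMM-scaled library sizes. The script was tested on simulated data. Genes at 0 in a group are bounded by a floor of 3 counts over the group (0.0425 CPM at day 10), for counting error only.

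The members, the 48 lists and the tests were chosen with earlier results of these data known. Named genes are FEZ1, FEZ2, the 10 largest rises and falls past 2-fold with at least 5 CPM in the higher and 1 CPM in the lower group and no overlap, and from each list its key genes and up to 4 further called members. Other names, among them uncalled or opposite members of a list, were chosen after their values were seen. Some genes that the rule names are not reported here. Alternatives were other scalings, no filter, DESeq2 1.42.0, the replicate block, FEZ1-null libraries alone, B16 libraries alone, and each library left out. Replicate numbers 1 and 2 occur at both days, but nothing says that they pair libraries.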

Additional observations from a re-analysis of the deposited data

Results flagged for a closer look

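In the 4 FEZ1-null libraries of day 10, 1 library lay far from the other 3 for 26 of the 224 genes named, by a gap whose share of the group's whole range was above Dixon's 95% critical value. Chance gives such a gap in about 1 in 20 groups of continuous values; 6 of the 26 genes had counts in 1 library only, for which the gap is fixed by construction, and DLX1 rests on 1 to 2 counts per library. Of these 26 genes, the library was replicate 1 for 16, replicate 2 for 2, replicate 3 for 3 and replicate 4 for 5. Replicate 1 was the highest for APOE at 635 CPM against 261 to 325 CPM, BIRC5 at 203 CPM against 148 to 149 CPM, CDT1 at 330.4 CPM against 189 to 211 CPM and DLX2 at 0.407 CPM against 0.121 to 0.141 CPM, the range being that of the other 3 libraries. Replicate 1 was the highest also for DPF1 at 26.6 CPM against 14.4 to 16.1 CPM, GRIN3B at 38.3 CPM against 19.4 to 21.7 CPM, KLC4 at 46.9 CPM against 27.7 to 30.0 CPM and LFNG at 454 CPM against 312 to 334 CPM, the range being that of the other 3 libraries. Replicate 1 was the highest also for SLC17A7 at 6.05 CPM against 3.64 to 3.99 CPM, TUBA1B at 2300.2 CPM against 1680.3 to 1755 CPM and VAMP1 at 40.8 CPM against 36.1 to 36.6 CPM, the range being that of the other 3 libraries. Replicate 1 was the lowest for HMGA2 at 197 CPM against 280.1 to 291 CPM and KIF5C at 111 CPM against 235 to 259.8 CPM, the range being that of the other 3 libraries. Replicate 3 was the highest for DKK1 at 56.9 CPM against 37.3 to 38.8 CPM and TPBG at 1502 CPM against 1265 to 1293 CPM, the range being that of the other 3 libraries. Replicate 4 was the highest for DLX1 at 0.129 CPM against 0.0469 to 0.0607 CPM, GRIA2 at 1.09 CPM against 0.116 to 0.182 CPM, SLC1A3 at 23.2 CPM against 11.5 to 13.1 CPM and SNAP25 at 0.772 CPM against 0.303 to 0.376 CPM, the range being that of the other 3 libraries. Replicate 4 was the highest also for STMN2 at 12.2 CPM against 1.64 to 2.50 CPM, the range being that of the other 3 libraries. Replicate 1 alone had counts of COL3A1, DCN, HOPX, with COL3A1 at 0.116 CPM, DCN at 0.0582 CPM and HOPX at 0.116 CPM. Replicate 2 alone had counts of HOXB2, NEUROD6, with HOXB2 at 0.0469 CPM and NEUROD6 at 0.0469 CPM. Replicate 3 alone had counts of TYR, with TYR at 0.0607 CPM. In replicate 1 ribosomal protein genes also took 14.2% of the counts, whose part in these values was not tested. For each of the 26 genes both day 60 libraries lay outside the range of the 4 day 10 libraries.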

How the results depend on the processing

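The total of genes changed between the days stayed within 1.5 times in every alternative run: 10211 with DESeq2's size factors, 10345 with upper-quartile factors, 10117 without a filter, 10465 in DESeq2, 9370 in FEZ1-null libraries alone and 10280 within B16, against 10227. Leaving out 1 library gave 7469 to 11531 genes changed and 3062 to 4436 past 2-fold, against 4278 (downward 926 to 1628, against 1549), and 7549 to 9667 in wildtype organoids. Of the 10227 genes, 6662 kept call and direction in all 13 settings, and 0 were called with the opposite sign in any. Differences of replicate 1 minus replicate 2 correlated at -0.112 between the days in FEZ1-null and 0.00358 in wildtype organoids, across genes. Each value rests on replicates 1 and 2 alone, so it cannot decide whether shared numbers pair the libraries. With the replicate block 9641 genes changed, 3677 past 2-fold, and 9227 in wildtype organoids. With the block RELN and ROBO2 no longer passed (adjusted p = 0.106 and 0.0555), SCOC passed as higher (adjusted p = 0.0146) and COX4I1 as lower (adjusted p = 0.0064), and 0 microglia and blood genes rose in place of 2. The interaction called 0 genes, but 75 in DESeq2, 1 with the replicate block, 908 within B16 alone and 0 to 193 with 1 library left out; the cause was not tested.

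Over 224 named genes and these alternatives, 2836 values kept direction and side of the threshold, 14 gained a call, 18 lost one and 38 changed sign, the last only in genes not called in either setting. The log2 fold change with upper-quartile factors stood for CDH5 at -0.0302, COL1A1 at -0.0279 and PTBP2 at -0.0286, and in DESeq2 for CDH5 at -0.0248. With the replicate block it stood for CDH5 at -0.656, COL1A1 at -0.62, EPCAM at 0.389, FOXD3 at -0.0992, HSPA5 at 0.00461, MITF at -0.178 and TNC at -0.222. Within B16 it stood for COL1A1 at -0.233, EPCAM at 0.0493, HSPA5 at 0.0752, MITF at -0.128 and TFAP2B at 0.464. Leaving out 1 FEZ1-null library gave -0.0961 to 0.367 for AQP4, -0.438 to 0.498 for CDH5, -0.166 to 0.256 for COL1A1, -0.095 to 0.0503 for DNMT3A, -0.238 to 0.102 for EPCAM, -0.356 to 0.148 for HES5, -0.0447 to 0.0301 for HSPA5, -0.018 to 0.241 for LHX6, -0.00823 to 0.215 for MITF, -0.0695 to 0.0953 for PTBP2 and -0.889 to 0.542 for TFAP2B. Among lists, 9 of the 16 proneural genes in place of 15 passed as higher with the replicate block, and 45 respiratory chain subunits with the block and 51 within B16 passed as lower in place of 24. Within B16, 10 clustered protocadherins rose and 13 fell, in place of 6 and 20, and the median of the neural crest list was -0.63 with the block, in place of 0.80.

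Depth of 15668253 to 21926380 counts puts the floor of a gene at 0.0803 CPM at day 60 and 0.0425 CPM at day 10, so ratios of genes at 0 counts at day 10 are bounds. Both day 60 libraries carry B16, so that the spread between codes at day 60 was not measured.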
